A study of Cavia porcellus with 24 samples.

Results

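Of 2564116 cytosines of CpG sites listed in both hippocampus and whole blood, 133007 lay in CpG-dense sequence and were unmethylated in the control animals of both tissues. A cytosine was included when it had 20 or more reads in all 4 pools of animals, 20 or more other listed cytosines of either strand within 100 bp, and a methylation level of at most 20% in the control pool of each tissue. The methylation level was the percentage of reads over a cytosine that were methylated. Of the cytosines listed in both tissues, 2342490 had 20 or more reads in all pools and 258051 of these were CpG-dense, so that the control level removed 125044 of the dense cytosines. The levels in the 2 control pools therefore chose these sites and are given as a description, as is every difference between sGC and control. The levels in the sGC pools, and the difference between blood and hippocampus within them, were not used for the choice.

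DNA methylation was measured by reduced representation bisulfite sequencing (RRBS), in which DNA is cut at an enzyme's recognition site that contains a CpG and bisulfite converts unmethylated cytosines before sequencing. The animals were female Hartley guinea pigs, 1 per litter, sampled at postnatal day 14. Their mothers had received the synthetic glucocorticoid (sGC) betamethasone at 1 mg/kg, or saline (Con), on gestational days 40 and 41, 50 and 51, and 60 and 61. Hippocampus and whole blood came from the same 12 animals, 6 per group, which gave 24 samples in the groups sGC hippocampus, Con hippocampus, sGC blood and Con blood. The reads of the 6 animals of a group had been summed before deposit, so each group gave 1 value per cytosine, the spread between animals could not be measured, and any test compares pools of reads. Hippocampus and blood are both mixtures of cell types, and a level carried by part of the cells, part of the animals or part of the copies of a sequence cannot be told apart in summed reads.

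In vertebrate genomes most CpG sites are methylated, and the CpG sites that stay unmethylated are concentrated in short, CpG-dense stretches known as CpG islands, many of which hold the promoters of housekeeping and developmental genes. Proteins with a CXXC domain bind unmethylated CpG and recruit enzymes that methylate histone H3 at lysine 4, a mark that the DNA methyltransferase complex of DNMT3A, DNMT3B and DNMT3L binds poorly. Methylation of a promoter island is associated with stable silencing, as on the inactive X chromosome and at imprinted genes. No annotation of islands or genes of the build was used here, and "island" below means a run of these cytosines on 1 scaffold with gaps of at most 200 bp.

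The 133007 cytosines formed 6787 islands on 291 scaffolds. The median island held 15 of them, with quartiles of 6 and 27, and 502 islands held 1. The 2781 islands of 20 or more cytosines contained 76.0% of the sites and spanned a median of 191 bp. Neighbouring cytosines are often covered by the same reads. Counts of cytosines within an island or scaffold are therefore descriptions and not counts of separate observations. The median number of reads per cytosine was 108 in sGC hippocampus, 108 in Con hippocampus, 123 in sGC blood and 98 in Con blood. A set of 1132 cytosines in 21 islands had more than 1000 reads in a pool and took 30.5% of all reads over these sites. These very deep cytosines were mostly on 1 scaffold, DS563782.1, where 853 of them lay between positions 463 and 15089. Because of them the level of a group of sites is given below as the mean over cytosines, and it is said where reads were summed instead.

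Residual methylation was low in every pool, and its mean over cytosines was higher in blood than in hippocampus. The mean level over the 133007 cytosines was 3.50% in sGC hippocampus, 3.16% in Con hippocampus, 4.06% in sGC blood and 4.05% in Con blood. The SD over cytosines was 4.59, 4.09, 4.84 and 4.47 percentage points in the same order, which includes the counting error of single cytosines. The medians were lower than the means, at 1.72%, 1.54%, 2.31% and 2.41%. Thus most sites were close to 0 and a minority carried much of the methylation. No methylated read was seen at 17.1% of the cytosines in sGC hippocampus, 20.6% in Con hippocampus, 11.3% in sGC blood and 16.1% in Con blood. A count of 0 depends on depth. With 20 reads drawn from each cytosine, 60.5%, 62.9%, 55.3% and 54.4% would be expected to show none, and on this equal footing hippocampus again had more empty sites than blood. Among cytosines of at most 1000 reads, the 10% with the most methylated reads held 45.1%, 45.0%, 41.7% and 40.4% of all methylated reads.

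**Figure D1:**
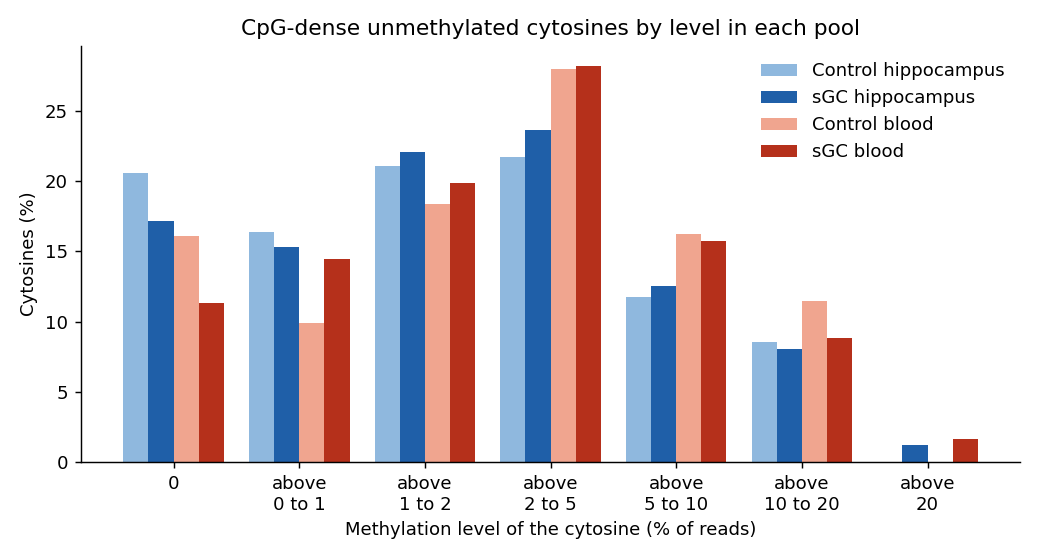
Percentage of the 133007 CpG-dense unmethylated cytosines (vertical axis) in each class of methylation level (horizontal axis, % of reads), with 1 bar for each of the 4 pools of 6 animals. The share of sites at 0 was highest in Con hippocampus, at 20.6%, and 1.24% of the sites in sGC hippocampus and 1.65% in sGC blood were above the 20% that bounds the control pools by the choice of sites.

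Summed over all sites, 5.16% of reads were methylated in sGC hippocampus (95% Wilson interval 5.15 to 5.17), 5.41% in Con hippocampus (5.40 to 5.42), 5.22% in sGC blood (5.21 to 5.23) and 6.18% in Con blood (6.17 to 6.19). These intervals cover counting error alone. Without the very deep cytosines the same shares were 3.24%, 2.91%, 3.79% and 3.76%. The order of sGC and Con thus turned in both tissues according to whether 1132 cytosines were included. The order of the tissues in the sGC pools was also not fixed in summed reads, and with 30 or more neighbours it was 7.12% in hippocampus and 6.80% in blood.

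The low level of these sites was found again in the sGC animals. Of the 133007 cytosines, 129499 (97.4%) were at 20% or lower in both sGC pools, compared with 26.4% of all cytosines with 20 or more reads. Of 71009 cytosines with fewer than 5 neighbours that were equally low in the control pools, 96.4% were low in both sGC pools. The CpG-dense cytosines at 80% or more in both control pools, 55257 in number, had mean levels of 92.7% in sGC hippocampus and 94.9% in sGC blood. None of those was at 20% or lower in both sGC pools. Dense sequence thus held sites near 3 to 4% and sites above 90%, and each kind mostly stayed on its side in the animals that had not chosen it. Both kinds were cut at a limit, and the rest of the 258051 dense cytosines belonged to neither.

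Near the limits the values were graded. The 8605 cytosines whose higher control level was above 15 and at most 20% had means of 12.6% in sGC hippocampus, 11.9% in Con hippocampus, 13.3% in sGC blood and 14.2% in Con blood, and 71.7% of them were low in both sGC pools. The 6456 dense cytosines just outside, with a higher control level above 20 and at most 25%, had means of 16.9%, 16.1%, 18.1% and 18.8%, and 37.5% were low in both sGC pools. On the side of density, the 42122 included cytosines with 20 to 22 neighbours had means of 3.00%, 2.71%, 3.50% and 3.47%. The 58297 unmethylated cytosines with 17 to 19 neighbours, just too few, had means of 2.77%, 2.50%, 3.19% and 3.13%. The limit of 20 neighbours therefore separated sites with nearly the same levels.

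The share of unmethylated sites rose with CpG density and then levelled off. Among all cytosines with 20 or more reads, those low in both sGC pools made up 5.32% with no neighbour, 10.1% with 1 to 4, 22.7% with 5 to 9, 36.4% with 10 to 14 and 44.7% with 15 to 19 neighbours. The share was 50% with 20 to 24 neighbours, 52.8% with 25 to 29, 54.3% with 30 to 39 and 50.5% with 40 or more. Within the unmethylated sites the residual level moved the other way and was higher where CpG were denser. For cytosines of at most 1000 reads in sGC hippocampus, the mean was 3.07% with 20 to 24 neighbours, 3.40% with 25 to 29, 4.05% with 30 to 39 and 4.75% with 40 or more. In sGC blood it was 3.61%, 3.96%, 4.70% and 5.49% over the same classes. Median reads fell from 110 to 97 in sGC hippocampus and from 125 to 112 in sGC blood across these classes, and the part of depth in the gradient was not tested.

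The mean of the included cytosines, which the control limit kept low, was flat inside the islands. Outside them methylation rose over several kilobases. In islands of 20 or more cytosines, the mean in the sGC pools was 3.18% in hippocampus and 3.77% in blood within 50 bp of an island end, and 3.56% and 3.89% at more than 200 bp from the ends. Listed cytosines outside the islands, which by definition had failed the limit on density or on level, were at 6.74% and 7.89% at 1 to 50 bp, and at 13.1% and 14.5% at 201 to 500 bp. They reached 33.3% in hippocampus and 35.3% in blood at 1001 to 2000 bp and 61.3% and 66.0% at 5001 to 20000 bp. The first step at the border follows from the choice of sites, whereas the slope beyond it was not fixed by the limits alone. Median neighbours fell from 17 at 1 to 50 bp to 8 at 5001 to 20000 bp, and the part of density in the slope was not tested. Between the first and last cytosine of the islands there were also 10956 listed cytosines that did not qualify, with means of 16.0% in sGC hippocampus and 16.9% in sGC blood, and 48.5% of them were low in both sGC pools.

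**Figure D2:**
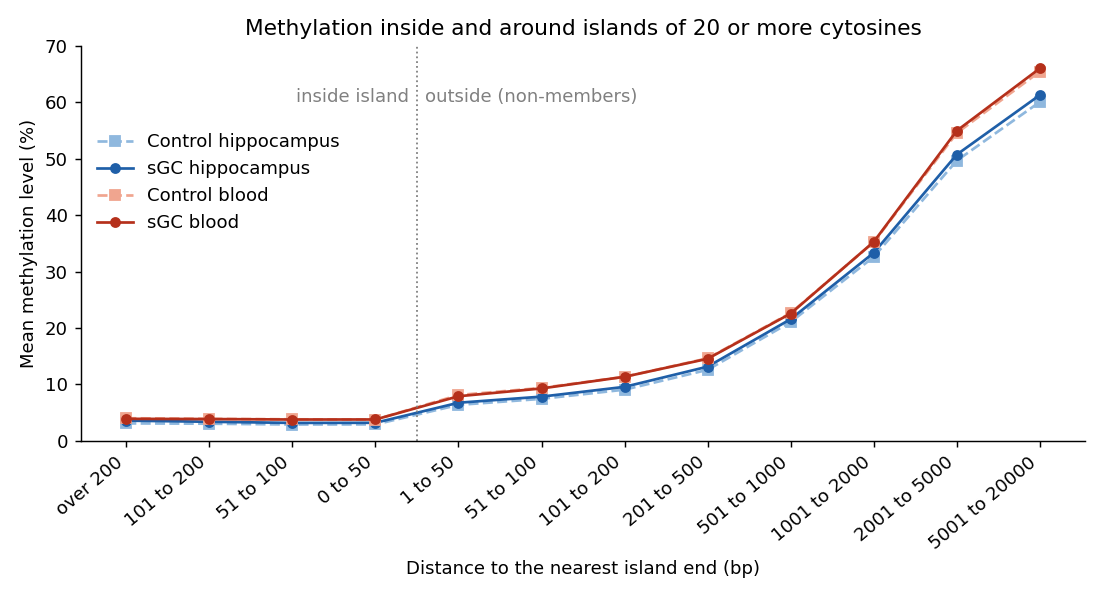
Mean methylation level (vertical axis, %) of cytosines by distance to the nearest end of an island of 20 or more CpG-dense unmethylated cytosines (horizontal axis, bp), inside the island to the left of the dotted line and outside it, among cytosines not included, to the right, for the 4 pools. Inside, only the included cytosines are drawn. The lines ran between 2.88 and 4.00% inside and reached 60.1 to 66.0% at 5001 to 20000 bp, with blood above hippocampus.

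The islands with the most cytosines differed widely in level. The island with the most of them, 582 cytosines at positions 3725 to 8003 of scaffold DS563782.1, had mean levels of 8.74% in sGC hippocampus, 10.4% in Con hippocampus, 7.67% in sGC blood and 11.0% in Con blood. It is part of the very deep scaffold, with 545 cytosines above 1000 reads and a median of 6516.5 reads in sGC hippocampus, and 171 dense cytosines that had failed the control limit lay among the 582. The next, 210 cytosines at 6906 to 8152 of DS563514.1, had usual depth and means of 1.83%, 1.38%, 3.30% and 3.60%. In the third, 174 cytosines at 293734 to 294749 of DS563026.1, the means were 5.76%, 5.50%, 4.07% and 4.01%. The island of DS563514.1 held 3 dense cytosines that had failed the limit, and that of DS563026.1 held 6. Blood was thus above hippocampus in the island of DS563514.1 and below it in that of DS563026.1.

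The most completely unmethylated islands had means below 1% in every pool. The 27 cytosines at 7065909 to 7066068 of DS562940.1 had means of 0.466% in sGC hippocampus, 0.496% in Con hippocampus, 0.385% in sGC blood and 0.540% in Con blood. The 21 cytosines at 1880720 to 1880926 of DS563020.1 had means of 0.398%, 0.434%, 0.393% and 0.390%. The 27 cytosines at 49516 to 49729 of DS562998.1 had means of 0.427%, 0.379%, 0.424% and 0.516%. No cytosine of these 3 islands exceeded 2.56% in any pool. Bisulfite conversion is never complete, and the share of such low values that comes from unconverted cytosines was not tested.

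At the other end, 3 islands of 20 or more cytosines had the highest summed levels in the sGC pools apart from the islands described below for the number of cytosines above 20%. The 20 cytosines at 2402720 to 2402934 of DS562985.1 had means of 15.1% in sGC hippocampus, 14.9% in Con hippocampus, 16.0% in sGC blood and 12.5% in Con blood. The 20 cytosines at 4204206 to 4204663 of DS562933.1 had means of 13.6%, 13.5%, 18.8% and 15.4%. The 22 cytosines at 808175 to 808514 of DS563003.1 had means of 15.3%, 12.6%, 16.8% and 13.4%. In each of them, dense cytosines that did not qualify lay between those that did, 18 in DS562985.1, 49 in DS562933.1 and 37 in DS563003.1. These were stretches of intermediate methylation from which the limit of 20% took the lower cytosines.

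The summed reads of the 2781 islands of 20 or more cytosines show how common each level was. The island median was 2.05% in sGC hippocampus, 1.79% in Con hippocampus, 2.90% in sGC blood and 2.97% in Con blood. Below 5% were 81.7%, 83.7%, 78.4% and 77.6% of the islands. Islands above 10% numbered 125, 107, 128 and 126.

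The comparison of blood with hippocampus in the sGC pools asks whether these sites are equally open in brain and in a peripheral tissue of the same animals, and it did not use the reads that chose the sites. The mean difference, blood less hippocampus, was 0.564 percentage points over the 133007 cytosines. Blood was above hippocampus at 55.6% of them and below it at 41.2%. In the control pools, whose levels the choice limited, the mean difference was 0.884 points. On the 40 scaffolds with the most of these sites, the mean difference in the sGC pools ranged from -1.08 to 2.36 points and was above 0 on 34.

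Single cytosines differed in both directions. By a two-sided Fisher exact test on the pooled reads, adjusted by Benjamini-Hochberg over all 2564116 cytosines (adjusted p under 0.05, 5 points or more apart), 4573 of the 133007 cytosines (3.44%) were higher in blood, against 16.7% of all cytosines tested. Another 3951 (2.97%) were higher in hippocampus, against 5.40% of all cytosines. Both shares lay below those of all cytosines, and sites near 0% in both tissues have little room for a difference of 5 points. The cytosines higher in blood had means of 15.0% in sGC blood and 2.91% in sGC hippocampus and lay in 1628 islands, with 4 or more in 375 of them. Those higher in hippocampus had means of 14.5% in sGC hippocampus and 2.03% in sGC blood and lay in 909 islands, with 4 or more in 301.

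In the control animals, whose levels the choice limited, 95.5% of the cytosines higher in blood and 93.7% of those higher in hippocampus lay on the same side. The means there were 10.8% in Con blood and 3.21% in Con hippocampus for the former, and 11.7% in Con hippocampus and 4.20% in Con blood for the latter. The number of calls rests on treating the reads of a pool as independent. When the chi-square statistic was divided by its inflation over all cytosines, a factor of 3.22, 88 cytosines were called as higher in blood (0.0662%) and 224 as higher in hippocampus (0.168%). The shares of all cytosines called with this division are not given. The factor came from all cytosines, which include sites that differ between the tissues, so it does not measure dependence among reads alone.

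**Figure D3:**
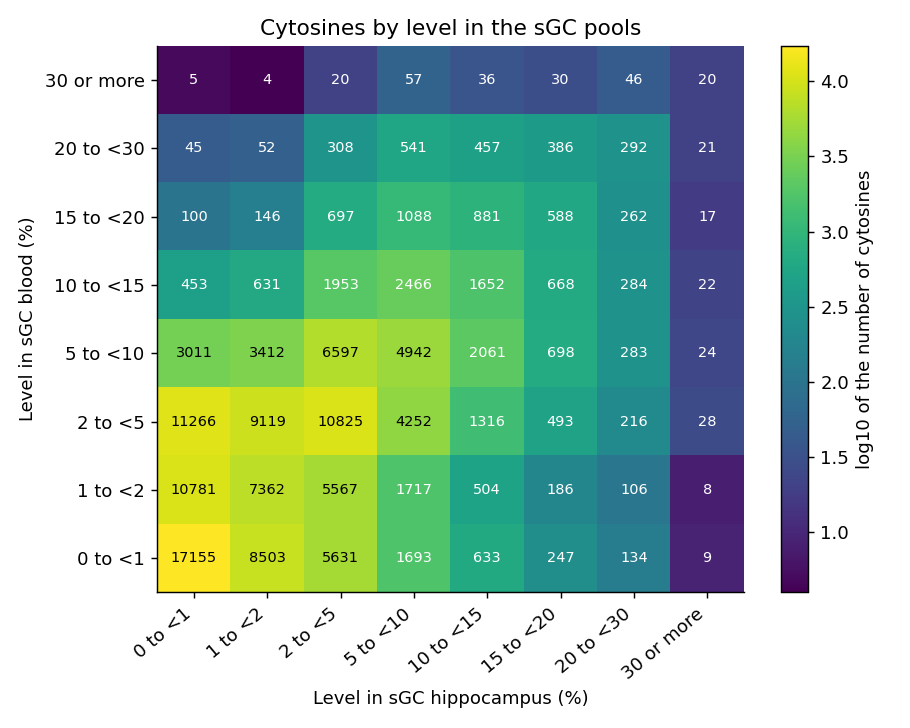
Number of CpG-dense unmethylated cytosines by methylation level in sGC hippocampus (horizontal axis, %) and in sGC blood (vertical axis, %), with the count printed in each cell and the colour on a log10 scale. The cell below 1% in both tissues held the most, 17155 cytosines, and 20 cytosines were at 30% or more in both.

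Islands with many such cytosines were unmethylated in 1 tissue and partly methylated in the other. They were picked here for their number of calls, after the values were seen. Highest in that number for blood was the island of 61 cytosines at 12092345 to 12092745 of DS562857.1, which the study assigned to C1orf56, with 31 cytosines called. Its means were 3.01% in sGC hippocampus, 0.840% in Con hippocampus, 12.2% in sGC blood and 8.96% in Con blood. The 58 cytosines at 5606930 to 5607265 of DS562931.1, with 26 called, had means of 2.98%, 1.85%, 14.9% and 7.31%. The 59 cytosines at 13261101 to 13261526 of DS562897.1, with 23 called, had means of 2.05%, 1.49%, 7.31% and 7.16%. Another 50 cytosines at 3493173 to 3493539 of DS562875.1, with 22 called, had means of 3.14%, 2.25%, 10.4% and 8.27%. In all 4 islands both blood pools were above both hippocampus pools.

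The islands with the most cytosines higher in hippocampus were longer. The 78 cytosines at 18247502 to 18248304 of DS562859.1, with 54 called, had means of 15.2% in sGC hippocampus, 12.2% in Con hippocampus, 2.14% in sGC blood and 3.35% in Con blood. The 84 cytosines at 9670963 to 9671727 of DS562908.1, with 48 called, had means of 11.6%, 11.5%, 1.91% and 2.51%. The 71 cytosines at 47958421 to 47959195 of DS562864.1, with 45 called, had means of 16.2%, 12.6%, 3.13% and 4.93%. The 67 cytosines at 20411544 to 20412168 of DS562887.1, also with 45 called, had means of 15.5%, 12.8%, 2.93% and 3.92%. Both hippocampus pools were above both blood pools in each of these.

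Among single cytosines, the difference in the sGC pools was greatest in favour of blood at DS562879.1 position 4885787 (plus strand), with 7.35% of 68 reads methylated in sGC hippocampus, 1.18% of 85 in Con hippocampus, 53.8% of 78 in sGC blood and 13.8% of 87 in Con blood (Fisher's exact test of the sGC pools, adjusted p = 9.24e-09). The opposite strand of the same CpG also qualified and, with 35 reads in sGC blood, was at 8.57%, so the high value was seen on 1 strand. No other CpG within 100 bp qualified, and the listed cytosines there had medians of 46.0%, 32.5%, 94.1% and 94.8% in the same order, so this CpG was low in sequence methylated in blood. Next was DS563012.1 138525, with 4.00%, 11.8%, 47.6% of 63 reads and 11.1%, and its opposite strand was at 32.2% of 59 reads in sGC blood. The remaining 2, DS562931.1 5607036 and 5607012, lay in the island above and had 31 reads each in sGC blood, with 41.9% and 48.4% methylated, whereas their opposite strands were at 11.8% of 51 reads and 8.11% of 74. At DS562931.1 5607036 the levels were 0%, 5.26%, 41.9% and 14.7%, where 0 of 46 reads allows a level of up to 6.52% (3 reads of the total).

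In favour of hippocampus, the greatest difference was at DS562897.1 position 13208495 (plus strand), with 41.3% of 46 reads in sGC hippocampus, 18.6% of 43 in Con hippocampus, 0% of 39 in sGC blood, which allows up to 7.69%, and 5.00% of 20 in Con blood (adjusted p = 1.74e-05 by Fisher's exact test of the sGC pools). DS562918.1 7399341 had 41.3%, 11.1%, 1.79% and 1.89%. DS563026.1 3147 had 41.9%, 19.0%, 2.56% and 6.90%, and DS562865.1 22867551 had 42.1%, 19.4%, 3.33% and 5.71%. The opposite strand of DS562918.1 7399341 was at 14.3% of 70 reads in sGC hippocampus, and that of DS562897.1 13208495 was not listed. For DS563026.1 3147 and DS562865.1 22867551 the opposite strands were at 27.9% of 43 reads and 23.1% of 78. The listed cytosines within 100 bp of the last 2 had medians of 37.2%, 40.6%, 3.85% and 9.68%, and of 39.7%, 30.7%, 4.21% and 9.09%, so their surroundings were also partly methylated in hippocampus. At these 4 sites the control hippocampus was also above both blood pools, and its reads, from 21 to 63, leave wide intervals.

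The comparison of sGC with Con asks whether exposure before birth moved these open sites. Since a low control level chose them, the choice itself favours higher values in sGC, and the differences are a description. The mean difference, sGC less Con, was 0.333 percentage points in hippocampus and 0.0126 points in blood, beside 1.11 and 0.583 points over all cytosines with 20 or more reads. The median difference was 0.183 points in hippocampus and -0.0599 in blood. On the 40 scaffolds with the most of these sites, hippocampus ran from 0.107 to 0.770 points, above 0 on all 40, and blood from -0.504 to 0.369 points, above 0 on 19.

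When the pools that made the choice were exchanged, the picture shifted. Chosen by Con, 1173 cytosines in hippocampus were higher with sGC by 10 points or more and 258 lower, and in blood 1206 were higher and 667 lower. Chosen by the sGC pools in the same way, 133157 cytosines qualified, and 532 were higher and 768 lower in hippocampus, and 443 higher and 1701 lower in blood. With the reads of sGC and Con summed for the choice, there were 887 higher and 537 lower in hippocampus, and 775 higher and 1285 lower in blood. The mean difference was 0.333, 0.109 and 0.225 points in hippocampus under the 3 choices and 0.0126, -0.321 and -0.180 points in blood. In hippocampus the sign of the mean stayed above 0 under all 3 choices, and in blood it depended on the choice.

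**Figure D4:**
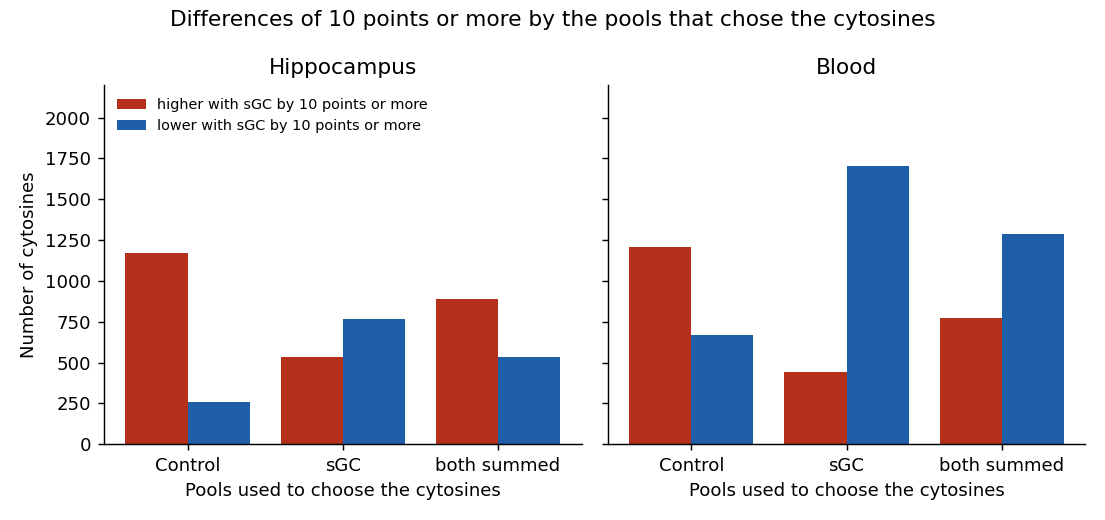
Number of CpG-dense unmethylated cytosines (vertical axis) that were higher (red) or lower (blue) with sGC by 10 percentage points or more, in hippocampus and in blood, when the limit of 20% was applied to the Con pools, to the sGC pools or to their summed reads (horizontal axis). With the Con choice used here 1173 were higher and 258 lower in hippocampus, and with the sGC choice 532 and 768.

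Few of these sites passed the Fisher threshold between sGC and Con. In hippocampus 27 (0.0203%) were higher with sGC, against 0.0729% of all cytosines tested, and 65 (0.0489%) were lower, against 0.0391%. In blood 43 (0.0323%) were higher, against 0.192% of all cytosines, and 270 (0.203%) were lower, against 0.125%. Of the lower cytosines, 62 of 65 in hippocampus and 258 of 270 in blood were very deep. When the chi-square statistic was divided by its inflation, 4 higher and 49 lower were called in hippocampus, and 4 higher and 247 lower in blood. The shares of all cytosines called with that division are not given. In both tissues 70 cytosines were called (0.0526%, against 0.0496% of all cytosines), 76.1% of those called in hippocampus and 22.4% of those called in blood, with 9 higher and 61 lower in both and none in opposite directions. Over all cytosines, 1272 were called in both tissues. Beside these, 2091 were called higher and 1122 lower among all listed in hippocampus, and 5617 higher and 3669 lower among all listed in blood. Opposite directions over all cytosines were not counted. Of the 70, 62 were very deep and 8 were not. The change itself differed between the tissues at 101 cytosines (0.0759%) by a z test on log odds ratios, against 0.0103% of all cytosines, and 100 of them were very deep.

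The 3 scaffolds with the most very deep cytosines were lower with sGC in both tissues. On DS563782.1, the 853 very deep cytosines had means of 9.56% in sGC hippocampus, 11.3% in Con hippocampus, 8.47% in sGC blood and 12.0% in Con blood. Of these, 749 were lower with sGC in hippocampus and 825 in blood. The 101 on DS563392.1 had means of 7.78%, 10.2%, 6.08% and 9.98%, and the 59 on DS564936.1 had means of 10.0%, 13.2%, 8.72% and 13.2%. Not every very deep stretch was lower in both tissues, and the 46 such cytosines at 48355426 to 48355712 of DS562868.1 had means of 0.384%, 0.449%, 0.450% and 0.429%. Whether the reads of these scaffolds come from 1 locus or from many copies of a repeated sequence was not tested.

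By island, differences were small and centred near 0. Over the 2781 islands of 20 or more cytosines, the mean difference of sGC less Con was 0.296 points in hippocampus (SD over islands 0.871), with 1871 islands (67.3%) above 0. In blood it was -0.0151 points (SD over islands 0.980), with 1324 islands (47.6%) above 0. An island mean was higher with sGC by 5 points or more in 7 islands in hippocampus and in 7 in blood, and 1 island was in both sets. It was lower by 5 points or more in 1 island in each tissue. In summed reads the gap fell below 5 points in some of the higher islands and not in others. On DS563005.1 in hippocampus it was 6.73% in sGC against 3.68% in Con. The island in both sets, on DS563139.1, was at 16.8% in sGC blood against 12.0% in Con blood.

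The islands with these differences were picked after their values were seen, and the cytosines of an island share reads. Among those higher with sGC, only the islands of DS562907.1, DS562931.1, DS562946.1 and DS562908.1 held a cytosine that passed the Fisher threshold as higher. The island highest in hippocampus was that of 65 cytosines at 8507252 to 8507667 of DS562907.1, with means of 16.3% in sGC hippocampus, 7.30% in Con hippocampus, 11.7% in sGC blood and 7.09% in Con blood. With sGC, 62 of its 65 cytosines were higher in hippocampus and 52 in blood, and 3 passed the Fisher threshold in hippocampus and 0 in blood. The 40 cytosines at 9533186 to 9533389 of DS562919.1 had means of 9.18%, 3.26%, 7.08% and 2.95%, with 40 higher in hippocampus and 38 in blood. Neither of these islands held a dense cytosine that failed the limit, and each had a higher level in both sGC pools. The island in both sets was that of 20 cytosines at 403340 to 403496 of DS563139.1, with means of 12.4%, 6.52%, 16.4% and 11.2%.

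Of the 7 islands higher with sGC by 5 points or more in blood, 5 had means below 5% in both hippocampus pools, and the hippocampus mean was higher with sGC in 4 of these. The 58 cytosines of DS562931.1 described above, at 2.98% in sGC hippocampus and 1.85% in Con hippocampus, were at 14.9% in sGC blood and 7.31% in Con blood, with 53 higher with sGC in blood and 5 past the Fisher threshold. The 32 cytosines at 2252055 to 2252291 of DS562946.1 had means of 4.17%, 1.78%, 12.2% and 4.90%. The 26 cytosines at 22894855 to 22894977 of DS562872.1 had means of 3.27%, 0.937%, 15.6% and 10.3%, and the 23 at 4835855 to 4836068 of DS562938.1 had 3.00%, 1.42%, 17.9% and 11.4%. In these 4 islands the higher tissue was blood in both groups. A further 2 of the 7 differed little in hippocampus. The 24 cytosines at 40979386 to 40979631 of DS562870.1 had means of 5.71% in sGC hippocampus, 5.58% in Con hippocampus, 18.6% in sGC blood and 12.8% in Con blood. The 21 at 6894838 to 6894956 of DS562908.1 had 3.81%, 4.15%, 16.4% and 11.4%. Dense cytosines that had failed the limit lay among those of DS562870.1, 21 in number, and among those of DS562938.1, 18 in number.

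Of the 7 islands higher with sGC by 5 points or more in hippocampus, 3 had a lower mean with sGC in blood. The 25 cytosines at 80455921 to 80456057 of DS562856.1 had means of 11.5% in sGC hippocampus, 4.44% in Con hippocampus, 8.11% in sGC blood and 9.96% in Con blood, and all 25 were higher with sGC in hippocampus and 6 in blood. The 23 cytosines at 30190285 to 30190638 of DS562862.1 had means of 19.8%, 14.4%, 6.08% and 10.5%, with 16 higher with sGC in hippocampus and 3 in blood. Another 45 dense cytosines that had failed the limit lay among these 23. The 20 at 1444541 to 1444730 of DS563005.1 had means of 9.19%, 4.07%, 1.08% and 2.60%, with 14 and 5 higher. The tissues thus differed in sign in these 3 islands, and that difference was not tested. The island lower by 5 points or more in hippocampus was that of 25 cytosines at 17269677 to 17269788 of DS562887.1, with means of 5.32%, 10.4%, 0.698% and 2.32%. The island lower in blood was that of 37 cytosines at 24577783 to 24578194 of DS562868.1, with means of 10.7%, 11.3%, 7.10% and 12.4%. Since 1 animal with a high level and a moderate rise in all 6 give the same pooled value, the number of animals behind any of these differences is unknown.

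**Figure D5:**
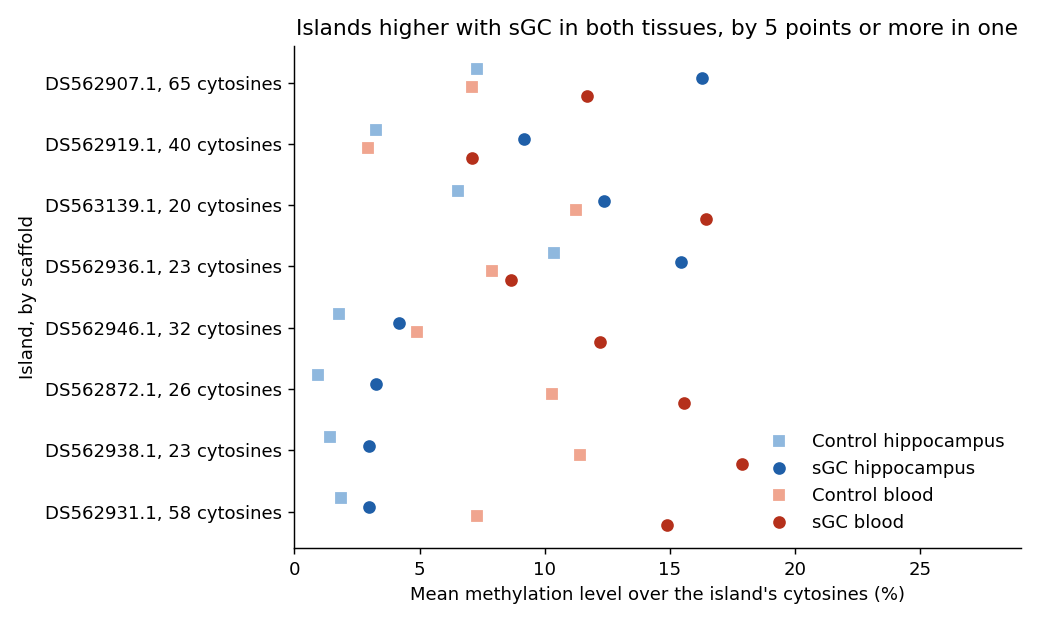
Mean methylation level over the cytosines of an island (horizontal axis, %) in the 4 pools, for the 8 islands of 20 or more cytosines (vertical axis, named by scaffold) whose mean and more than 50% of whose cytosines were higher with sGC in both tissues, with a mean higher by 5 points or more in at least 1 tissue. On DS562907.1 the sGC pools were at 16.3 and 11.7% and the Con pools at 7.30 and 7.09%.

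Sites above 20% in sGC, a level that the choice excluded in Con, were counted whether or not they passed the Fisher threshold. In sGC hippocampus 1655 cytosines were above 20% and in sGC blood 2201. Both pools were above 20% at 348 cytosines, 0.262% of the 133007, which was 21.0% of the hippocampal set and 15.8% of the blood set. Of the 71009 low cytosines with fewer than 5 neighbours, 345 (0.486%) were above 20% in both pools, 26.0% and 21.6% of their sets. Among the 348, 15 passed the Fisher threshold between sGC and Con in hippocampus, 14 in blood and 7 in both. Most of the 348 had been close to the limit in Con, since 298 (85.6%) had a control level above 15% in at least 1 tissue and 7 had control levels of at most 10% in both. Their medians were 23.3% in sGC hippocampus, 16.0% in Con hippocampus, 24.4% in sGC blood and 16.9% in Con blood. They were scattered over 239 islands, of which 175 held 1 and 12 held 4 or more.

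The 6 islands with the most such cytosines spanned 88 to 592 bp and were partly methylated in Con. The island of 17 cytosines at 7495395 to 7495622 of DS562936.1, with 6 above 20% in both sGC pools, had means of 20.7% in sGC hippocampus, 15.9% in Con hippocampus, 20.2% in sGC blood and 16.3% in Con blood. The 8 cytosines at 533019 to 533132 of DS562861.1, also with 6, had means of 24.4%, 14.9%, 31.3% and 17.7%, and all 8 were higher with sGC in both tissues. These 8 lay within 114 bp and share reads, so they are not separate observations, and the sGC levels picked the island. The 22 cytosines at 1722156 to 1722747 of DS562934.1, with 5, had means of 15.0%, 12.0%, 16.5% and 14.1%, and the 12 at 23066732 to 23066944 of DS562859.1, with 5, had means of 19.0%, 15.4%, 21.6% and 12.6%. The values of these last 2 islands rested on cytosines of low depth. With 50 or more reads in all pools, the mean difference of DS562934.1 went from 3.06 to -0.477 points in hippocampus and from 2.34 to -0.533 in blood over 9 cytosines, and that of DS562859.1 from 3.63 to 0.383 and from 8.97 to 2.12 over 7. No cytosine of these 4 islands passed the Fisher threshold between sGC and Con in either tissue. In all 4 islands dense cytosines that had failed the limit lay among those that qualified, 34 in DS562936.1, 13 in DS562861.1, 76 in DS562934.1 and 35 in DS562859.1, so that each was part of a more methylated stretch.

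A larger gap in hippocampus was seen in the 14 cytosines at 4942521 to 4942795 of DS562947.1, with means of 23.0% in sGC hippocampus, 7.78% in Con hippocampus, 22.5% in sGC blood and 14.1% in Con blood. All 14 were higher with sGC in hippocampus and 13 in blood, and 5 were above 20% in both sGC pools, the values by which the island was picked. The Fisher threshold was passed by 1 of the 14 in hippocampus and by none in blood. Another 10 dense cytosines that had failed the limit lay among the 14. The single highest level of any of the 133007 cytosines in sGC hippocampus, 63.6%, was in this island, at DS562947.1 position 4942709 with 22 reads, close to the minimum. With 50 or more reads, 6 of the 14 cytosines were left, with mean differences of 12.0 points in hippocampus and 6.29 in blood in place of 15.2 and 8.42, and the 2 cytosines with Con at most 10% differed by 4.54 and 4.81 points. The 15 cytosines at 11173125 to 11173212 of DS562911.1 differed less and were very deep. Their means were 17.4%, 12.8%, 17.3% and 12.8% with medians of 2210, 1796, 2345 and 1496 reads, and all 15 were higher with sGC in both tissues. The Fisher threshold was passed by 4 of the 15 in hippocampus and by 3 in blood.

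Among the 70 cytosines called in both tissues, the 6 with the greatest differences were all higher with sGC. Since Con was at most 20% by the choice, a fall could not exceed 20 points whereas a rise could. Ranking by size therefore favours rises, and 61 of the 70 were lower with sGC. At DS562868.1 position 7068543 (plus strand), the level was 51.7% of 87 reads in sGC hippocampus (95% Wilson interval 41.4 to 61.9), 8.06% of 62 in Con hippocampus (3.49 to 17.5), 58.7% of 75 in sGC blood (47.4 to 69.1) and 10.3% of 68 in Con blood (5.08 to 19.8). The values of sGC and Con chose this site and are a description. The opposite strand of this CpG was at 45.9%, 12.5%, 57.8% and 25.5%, so both strands were higher with sGC, and the Con blood level kept the opposite strand out of the chosen sites. The other listed cytosines within 100 bp had medians of 95.5%, 94.3%, 96.6% and 96.0%. This site was therefore a single CpG of low control level inside methylated sequence and not part of an open island.

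The same setting was found at other sites of the 6. DS562870.1 position 34663575 (plus strand) was at 33.9%, 3.03%, 31.1% and 0%, in the order sGC hippocampus, Con hippocampus, sGC blood and Con blood, where 0 of 49 reads allows a level of up to 6.12%. DS563026.1 position 472307 (plus strand) was at 44.7%, 14.9%, 47.2% and 18.6%, and its opposite strand at 31.9%, 15.6%, 45.8% and 26.9%. DS562870.1 position 34666267 (minus strand) was at 23.6%, 4.22%, 22.1% and 1.25%, and its opposite strand at 22.3%, 6.09%, 24.6% and 1.80%. At all 3, the other listed cytosines within 100 bp had medians above 90% in every pool. Where the opposite strand was listed, it too was higher with sGC in both tissues. Hippocampus and blood of the same animals had similar levels. That agreement was favoured by the choice, which took sites called in both tissues.

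The remaining 2 of the 6 differed from that setting. DS563105.1 position 568687 (minus strand) was at 37.1%, 13.0%, 41.1% and 13.3%, and the 4 other qualifying cytosines within 100 bp had means of 21.5%, 10.2%, 21.3% and 14.3%. DS562871.1 position 41018891 (plus strand) was at 17.9% of 570 reads, 5.23% of 421, 25.7% of 657 and 14.5% of 358, and had more qualifying cytosines within 100 bp than any other of the 6. The 22 other qualifying cytosines around it had means of 7.57%, 3.25%, 12.2% and 8.16%, so its neighbours were also higher with sGC in both tissues, by less.

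Of the 7 cytosines above 20% in both sGC pools and at most 10% in both control pools, 3 lay on DS562870.1, namely 34663575 and both strands of the CpG at 34666266. Only 34663575 and 34666267 of DS562870.1 passed the Fisher threshold between sGC and Con in both tissues. DS562893.1 6529167 passed in neither tissue, and the others passed in a single tissue. A further 2 were the strands of the CpG at 2812760 of DS562897.1, where the plus strand was at 24.8%, 6.08%, 25.7% and 9.09% and the minus strand at 26.4%, 6.50%, 26.3% and 8.47%. DS562903.1 position 4548370 (minus strand) was at 35.3%, 1.69%, 24.2% and 7.32%. At DS562893.1 position 6529167 (plus strand) the level was 24.2% of 33 reads, 9.43% of 53, 21.2% of 33 and 6.38% of 47, whereas the opposite strand, with 187 to 217 reads, was at 0% (up to 1.60% at this depth), 0.515%, 2.30% and 0.939%. The first 6 thus lay on 4 CpG sites, and the seventh was methylated on 1 strand only.

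In the copy used here, parts of which were shortened, the study's own lists of differentially methylated sites gave a gene name to at least 4 of the 6787 islands. Those lists were chosen on these samples, so their direction is not independent evidence. Besides C1orf56, given above, the island assigned to STEAP3, a metalloreductase of iron uptake, held 67 cytosines at 59971986 to 59972341 of DS562858.1 with means of 6.27% in sGC hippocampus, 6.67% in Con hippocampus, 1.31% in sGC blood and 5.89% in Con blood. In blood 53 of the 67 were lower with sGC, and none passed the Fisher threshold. The island assigned to GLI2, a transcription factor of hedgehog signalling, held 10 cytosines at 61592792 to 61592984 of DS562858.1 with means of 10.8%, 6.52%, 18.1% and 11.9%, of which 8 were higher with sGC in hippocampus and 9 in blood. None of the 10 passed the Fisher threshold between sGC and Con. Another 24 dense cytosines that had failed the limit lay among these 10, so the GLI2 island was part of a more methylated stretch. The island assigned to ACACB, an acetyl-CoA carboxylase of the mitochondrial membrane, held 2 cytosines at 6309405 and 6309413 of DS562859.1 with means of 15.3%, 15.1%, 3.76% and 6.07%.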

How the data were processed

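RRBS was analysed in hippocampus and blood of female guinea pigs. The authors trimmed reads with Trim Galore and a NuGEN script, aligned them to cavPor3 with Bismark 0.16.0 and sorted the alignments with SAMtools 1.7 (versions from the submitters' processing notes), and MethPipe then took batch into account. The authors deposited, per tissue, raw counts of methylated and total reads per cytosine, each the sum of 6 animals, with at least 10 reads in each group. Batches were summed too and cannot be told apart. The deposited FDR column holds the authors' comparison and was not used. Total reads were 302474482 in sGC hippocampus, 273684449 in Con hippocampus, 323883199 in sGC blood and 269116901 in Con blood.

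Levels, neighbours and islands were computed in Python 3.11.15 with numba 0.67.0, scipy 1.17.1, numpy 2.4.6, pandas 2.3.3 and matplotlib 3.10.9. Cytosines were tested by two-sided Fisher exact tests with Benjamini-Hochberg adjustment over all cytosines of the table, called at an adjusted p below 0.05 and 5 percentage points. The tissues' changes were compared by a z test on log odds ratios with 0.5 added to each count, chosen after seeing the data. The tests were checked on simulated data, and the outcome is not given here. Intervals (95%, Wilson) cover counting error, and PCR duplicates cannot be recognised. The sites and lists were chosen with earlier results of these data known. Islands were named by rule: the 3 with the most cytosines, the 6 with the most above 20% in both sGC pools, and the 3 highest and 3 lowest in sGC among those of 20 or more. Single sites were the 6 called in both tissues with the greatest differences and 4 in each direction between tissues. All others were named after their values were seen. Gene names came from the study's lists of differentially methylated sites, parts of which were shortened in the copy used. Gene lists that need an annotation of the build, and sequences, were not analysed here.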

Additional observations from a re-analysis of the deposited data

Results flagged for a closer look

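The change with sGC differed between the tissues at 101 of the 133007 cytosines (0.0759%, against 0.0103% of all cytosines tested), by the z test on the log odds ratios of the pooled reads with Benjamini-Hochberg adjustment, and this difference between groups is what singled them out. The test compares pools and not animals. Of the 101, 100 had more than 1000 reads in a pool and 95 lay on DS563782.1 between positions 710 and 13597, with means of 12.2% in sGC hippocampus, 13.4% in Con hippocampus, 9.83% in sGC blood and 15.0% in Con blood. At 100 of the 101 the change was more negative in blood than in hippocampus, the exception being DS563782.1 position 5249 (minus strand), with 14.8%, 17.8%, 8.68% and 7.28% in the same order. At 20 of the 101 the tissues moved in opposite directions. The cytosine of usual depth was DS563033.1 position 1104654 (plus strand), at 15.5% of 193 reads in sGC hippocampus, 4.47% of 179 in Con hippocampus, 6.50% of 200 in sGC blood and 17.9% of 173 in Con blood. Without the very deep cytosines 1 of the 101 is left.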

How the results depend on the processing

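No paired analysis was possible because the deposited reads are summed over the animals of a group. Single replicates could not be left out for the same reason. Reads of a pool come from 6 animals in unknown shares, and all intervals and calls reflect depth alone. The alternative without cytosines of over 1000 reads was chosen after seeing the data. Of 116 recomputed values, 44 stayed close to those reported and 72 moved. The order of sGC and Con in read shares turned in hippocampus with Con at most 10%, and in both tissues without cytosines of over 1000 reads. In the sGC pools the read share of hippocampus was above that of blood with 30 or more neighbours, with both other choices of pools and with both strands summed, and below it otherwise. Calls higher in blood outnumbered those in hippocampus except with the inflated chi-square divided. Values below are percentages. "Low" is the share of cytosines at 20% or lower in both sGC pools, "gaining" that above 20% in both (and the share of islands with one), "called" the Fisher calls, and "read shares" the methylated reads in sGC hippocampus, Con hippocampus, sGC blood and Con blood.

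With 50 or more reads, low was 97.8, and read shares were 5.19, 5.47 and, for Con blood, 6.22. With 30 or more neighbours, low was 96.4, called higher and lower with sGC were 0.00282 and 0.102 in hippocampus and 0.0113 and 0.527 in blood, and read shares were 7.12, 7.88, 6.80 and 8.73. With neighbours counted among cytosines of 20 or more reads, low was 97.5 and read shares were 5.15, 5.40, 5.21 and 6.16.

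With Con at most 10%, low was 99.8, called higher in blood 1.86 and in hippocampus 1.31, called higher and lower with sGC 0.0107 and 0.00268 in hippocampus and 0.0170 and 0.0116 in blood, gaining 0.00626 (islands 0.0791), and read shares 2.49, 2.37, 2.90 and 3.01. With sGC and Con summed for the choice, low was 98.6, called higher with sGC 0.0135 in hippocampus and 0.0187 in blood, gaining 0.0570 (islands 1.04), and read shares 5.46, 5.85, 5.44 and 6.63. Chosen by the sGC pools, called higher and lower were 0.00225 and 0.0879 in hippocampus and 0.00676 and 0.307 in blood, and read shares 5.67, 6.17, 5.58 and 6.93.

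With both strands summed, low was 98.0, called higher with sGC 0.0366 in hippocampus and 0.0620 in blood, islands with a gaining site 1.92, and read shares 5.11, 5.36, 5.10 and 6.06. With a gain set at above 30%, gaining was 0.0150 (islands 0.280). With a difference of 10 points, called higher in blood was 2.04 and in hippocampus 1.87, and called lower with sGC 0.00226 in hippocampus and 0.0173 in blood. With the inflated chi-square divided, called higher in blood was 0.0662 and in hippocampus 0.168, and called higher with sGC 0.00301 in each tissue. Without cytosines of over 1000 reads, called lower with sGC was 0.00227 in hippocampus and 0.00910 in blood, and read shares were 3.24, 2.91, 3.79 and 3.76. Mean differences of named islands that changed sign were those of DS562934.1, given above, DS562933.1 in hippocampus (0.155 to -0.853 points with 50 or more reads and -0.211 with 30 or more neighbours) and in blood (3.47 to -0.295 with 30 or more neighbours), and, from 0.196 to -0.0689 and from 0.0589 to -0.0184 and -0.0715, DS562985.1 in hippocampus and DS563026.1 in blood. The causes were not tested beyond what each setting removes.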

Other observations

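The strands of these CpG sites had nearly the same level. Of 43347 plus-strand cytosines whose opposite strand also had 20 or more reads in all pools, 95.7% had an opposite strand that qualified as well. The opposite strands had means of 3.98% in sGC hippocampus and 4.64% in sGC blood, where the plus strands had 3.85% and 4.50%. At the 119 plus-strand cytosines above 20% in both sGC pools, the opposite strands had means of 21.1% in sGC hippocampus, 18.4% in Con hippocampus, 23.4% in sGC blood and 21.8% in Con blood, and 33.6% of them had qualified as low in Con. The plus strands, chosen for a low Con level and for more than 20% in both sGC pools, were at 24.8%, 15.2%, 25.9% and 15.7%. The gap between sGC and Con was thus 2.73 points in hippocampus and 1.55 points in blood on the opposite strands, and 9.66 and 10.2 points on the plus strands, which were chosen by level in Con and in sGC. The opposite strands were not themselves chosen by level but belong to the same CpG sites. Of the 119 opposite strands, 51 were above 20% in both sGC pools.

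Across the 131875 cytosines of at most 1000 reads, the levels of sGC and Con had a Spearman rho of 0.512 in hippocampus and 0.606 in blood, between pools of other animals. Hippocampus and blood of the same animals had a rho of 0.448 in sGC and 0.437 in Con. These points share libraries, depth and islands, and the correlations are across cytosines, which are not independent.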
